A study of Sus scrofa with 36 samples.

Results

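The 9 mature miRNAs described here are the arms of miR-126, miR-143, miR-145, miR-221 and miR-222, which are among the best known miRNAs of blood vessels. They were chosen by the number in their names, with any arm suffix, from a small RNA table of pig hearts that lists 486 entries for 411 mature miRNAs. Both arms were listed for miR-126, miR-143, miR-145 and miR-221, while miR-222 was listed without an arm suffix. Hearts came from Yorkshire pigs at postnatal days 1, 3, 7 and 28 (P1, P3, P7 and P28), with 3 pigs at each age and 12 small RNA libraries in all. The animals were untreated and normally fed, the sex of the pigs in these libraries is not given in the sources used here, and each library was made from whole heart tissue, so that myocytes and nonmyocytes were sequenced together. The pigs are called 4, 5 and 6 at each age, after the numbers in the column names. An age effect cannot be told apart from any other difference between the sets of animals sampled on different days.

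A miRNA is cut from a hairpin precursor, whose 2 arms give a 5p and a 3p product, and 1 of them usually guides the silencing of messenger RNAs while the other is degraded. miR-126 lies in an intron of EGFL7 and is enriched in endothelial cells, where it is known for promoting vascular endothelial growth factor signaling by lowering its inhibitors. miR-143 and miR-145 are made from a common transcript and are enriched in vascular smooth muscle, where they are known for maintaining the contractile state. miR-221 and miR-222 are also made from a common transcript; they are known for promoting proliferation of smooth muscle cells and for restraining it in endothelial cells. In the RefSeq annotation of Sscrofa11.1, MIR126 lies within EGFL7 on a sequence with no chromosome assigned, MIR143 and MIR145 are next to each other on chromosome 2 within the span of IL17B, and MIR221 and MIR222 are next to each other on chromosome X.

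Levels are given as CPM, the counts of a miRNA scaled to a common library total, with library totals adjusted by the trimmed mean of M values (TMM). Libraries held 2921128 to 7917259 miRNA counts, and the 9 members took 12.8% to 19.1% of them. A filter kept entries that reached 10 counts in 3 or more libraries; it kept 305 entries, all 9 members included. miR-1, the muscle miRNA, was the most abundant miRNA in all 12 libraries, at 30.7% to 44.9% of the counts, and its highest shares were those of the 3 P28 libraries. Bulk tissue does not separate fewer cells of a type from less RNA per cell.

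miR-143-3p was the second most abundant miRNA in every library, at 115990 to 168535 CPM or 10.7% to 16.2% of the counts. miR-126-3p ranked between 6 and 11, at 16375 to 26143 CPM. It was followed by miR-145-5p at 1477 to 2575 CPM, miR-126-5p at 956 to 1905 CPM, miR-143-5p at 113 to 169 CPM, miR-221-3p at 45.5 to 127 CPM, miR-145-3p at 45.1 to 80.8 CPM, miR-222 at 14.5 to 69.4 CPM and miR-221-5p at 7.42 to 18.9 CPM. The ranges of the first 3 did not overlap, and neither did those of miR-126-5p and miR-143-5p. Of the other neighbors in this order, miR-145-5p exceeded miR-126-5p, miR-143-5p exceeded miR-221-3p, miR-145-3p exceeded miR-222 and miR-222 exceeded miR-221-5p in 12 of 12 libraries, although their ranges over all libraries overlapped. miR-221-3p exceeded miR-145-3p in 7 of 12 libraries, and their order differed between ages. miR-221-3p was the higher in every P1 and P7 pig and the lower in every P28 pig, while the P3 pigs were mixed. Small RNA ligation does not capture all sequences equally, so the order is one of counts.

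**Figure D1:**
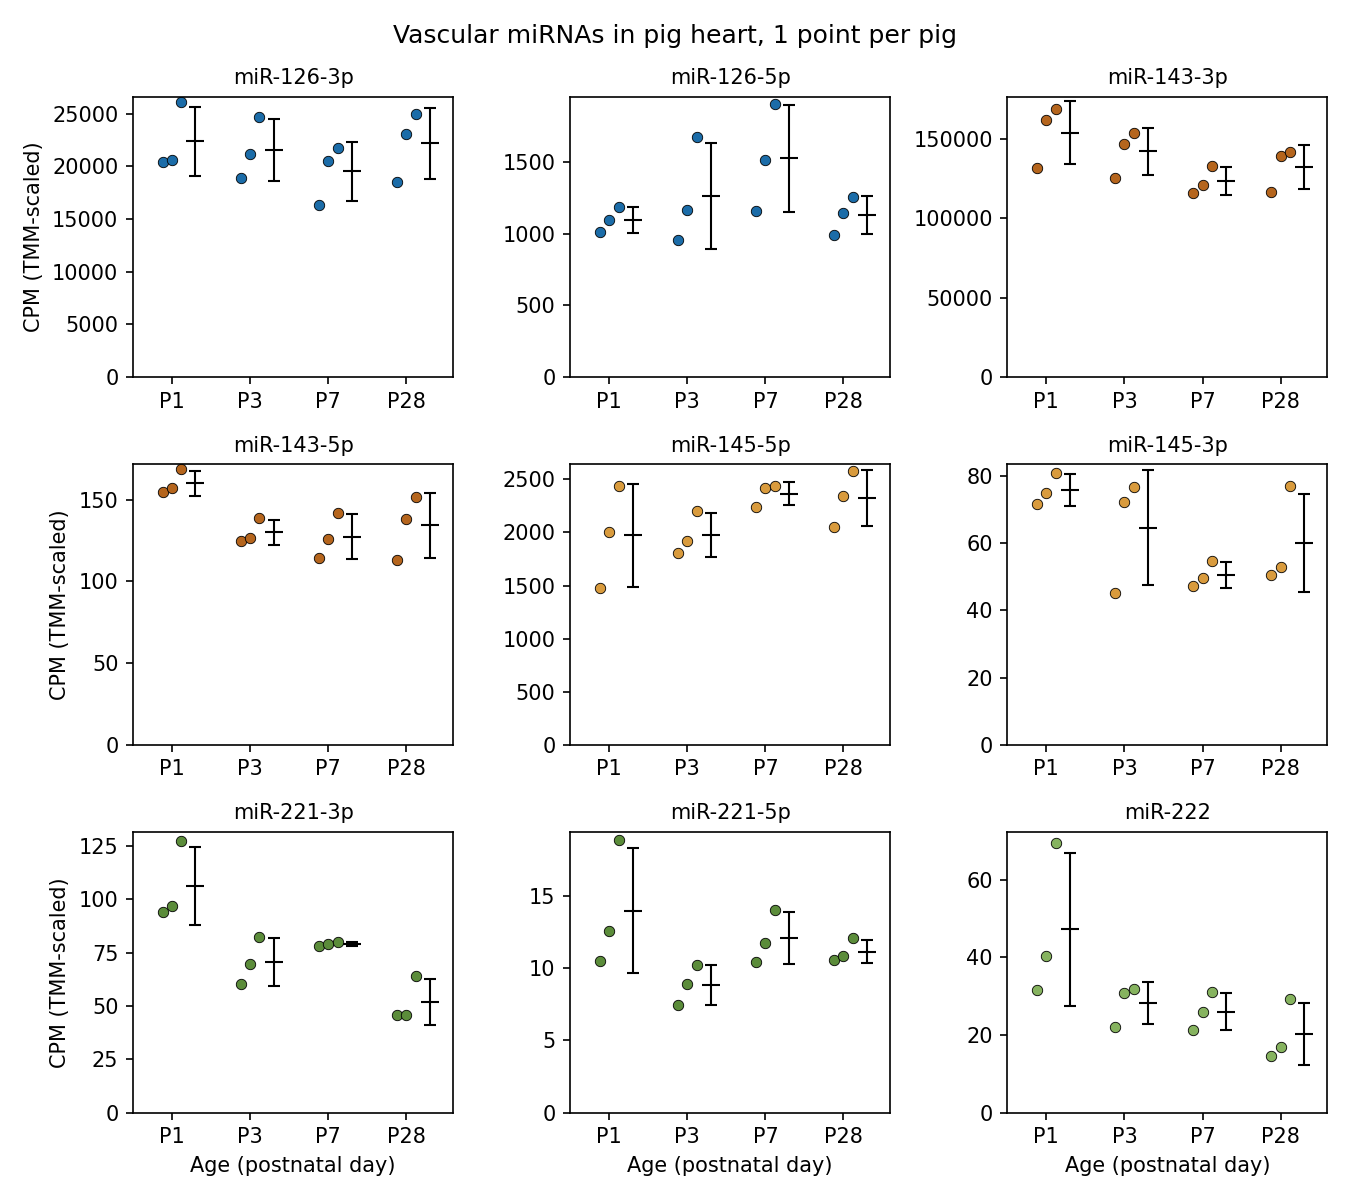
CPM of each of the 9 members at P1, P3, P7 and P28, with 1 point per pig and the mean and SD of 3 pigs as a bar beside the points; each panel has its own linear axis from 0. miR-221-3p was lower in all 3 P28 pigs, at 45.5 to 64.2 CPM, than in all 3 P1 pigs, at 94.1 to 127 CPM, whereas the miR-126-3p and miR-143-3p points of the 2 ages overlapped.

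The endothelial miR-126-3p showed no detectable change between any of the ages compared. Its level was 20393, 20562 and 26143 CPM in the P1 pigs, 21202, 18852 and 24685 CPM in the P3 pigs, 20522, 21725 and 16375 CPM in the P7 pigs and 23042, 18498 and 25000 CPM in the P28 pigs. All 4 ages overlapped. Averaged over 3 pigs, it was 22366 CPM at P1 (SD 3272) and 22180 CPM at P28 (SD 3336). The log2 fold change from P1 to P28 was -0.01, with a 95% interval from -0.34 to 0.32.

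Its partner arm miR-126-5p was least alike among pigs at P3 and P7. Its level was 1008, 1186 and 1096 CPM at P1, 1162, 956 and 1675 CPM at P3, 1512, 1905 and 1158 CPM at P7, and 1254, 992 and 1147 CPM at P28. The P7 pigs were on average highest, but the lowest of them lay within the P1 range. The log2 fold change from P1 to P7 was 0.48 (SE 0.20, 95% interval 0.04 to 0.91), with an edgeR adjusted p of 0.092. It passed the threshold in 5 of 21 alternatives: scaled to total counts without TMM factors (log2 fold change 0.68, adjusted p = 0.0283), with only the 2 ages compared (0.50, adjusted p = 0.034), and without pig 5 of P3 (adjusted p = 0.0464), pig 6 of P3 (adjusted p = 0.0343) or pig 6 of P7 (0.63, adjusted p = 0.0326). From P7 to P28 its log2 fold change was -0.43 (SE 0.20, edgeR adjusted p = 0.122), and it was called lower with total counts (-0.81, adjusted p = 0.0077) and with only the 2 ages compared (-0.50, adjusted p = 0.029).

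The smooth muscle miR-143-3p had its highest mean at P1 and was not called different at any later age. The P1 pigs had 131229, 168535 and 161470 CPM, the P3 pigs 125527, 153714 and 146697 CPM, the P7 pigs 132755, 121047 and 115990 CPM and the P28 pigs 139309, 116413 and 141293 CPM. The lowest P1 pig lay within the range of each later age. The log2 fold change from P1 to P7 was -0.32 (SE 0.12, edgeR adjusted p = 0.0649), and it was called with only the 2 ages compared (adjusted p = 0.0495) and without pig 4 of P1 (adjusted p = 0.0333). The log2 fold change from P1 to P28 was -0.22, with a 95% interval from -0.48 to 0.05. As a share of total counts, without TMM factors, miR-143-3p was lower at P28 than at P1, with a log2 fold change of -0.39 and an adjusted p of 0.00683, and so was miR-143-5p (-0.43, adjusted p = 0.0381). Between these ages miR-1 itself rose from 381809 ± 24772 to 497770 ± 53048 CPM (SD, n = 3), and its part in the total-count result was not tested.

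The minor arm miR-143-5p was 157, 169 and 154 CPM in the P1 pigs. It was 139, 127 and 124 CPM at P3, 142, 125.6 and 114 CPM at P7 and 152, 113 and 138 CPM at P28. Every P1 pig exceeded all 9 older pigs, by as little as 154 against 152 CPM, and no comparison with P1 passed the threshold (edgeR adjusted p = 0.291, 0.124 and 0.204 at P3, P7 and P28).

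The 2 arms of miR-145 lay on opposite sides of their P1 means at P7 and P28, but only 1 call was made. miR-145-5p was 2439, 2003 and 1477 CPM at P1, 1915, 2204 and 1803 CPM at P3, 2437, 2239 and 2416 CPM at P7 and 2051, 2346 and 2575 CPM at P28. The P1 pigs overlapped with every later age, and the log2 fold change from P1 to P28 was 0.24, with a 95% interval from -0.11 to 0.59. miR-145-3p was 74.9, 71.8 and 80.8 CPM at P1, 76.6, 72.1 and 45.1 CPM at P3, 54.6, 47.3 and 49.6 CPM at P7 and 76.9, 52.8 and 50.5 CPM at P28. All 3 P7 pigs lay below all 3 P1 pigs, whereas pig 6 at P3 and pig 4 at P28 stood apart from the rest of their ages. The log2 fold change of miR-145-3p from P1 to P7 was -0.59 (SE 0.21), with an edgeR adjusted p of 0.0488. This value sat close to the threshold, ranged from 0.0181 to 0.199 over the alternatives and was past 0.05 in 14 of 21 of them. With total counts the miR-145-3p call was lost (-0.39, adjusted p = 0.199), and miR-145-5p was called higher at P7 than at P1 (0.46, adjusted p = 0.0431).

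The hairpins of miR-143 and miR-145 were also listed as genes in the total RNA table of the same ages, as ENSSSCG00000019165 (chr2:150578738-150578817) and ENSSSCG00000018513 (chr2:150580126-150580211), 1308 bases apart. The build of these coordinates is not given in the sources used here. The miR-143 hairpin had 8 to 34 counts per library and the miR-145 hairpin 25 to 95. Mean levels at P1 and P28 were 0.914 ± 0.392 and 2.23 ± 1.15 CPM for the miR-143 hairpin and 4.10 ± 0.557 and 6.14 ± 1.89 CPM for the miR-145 hairpin (SD, n = 3). The P1 and P28 libraries overlapped for both, and neither was called (log2 fold change 1.27, SE 0.57, edgeR adjusted p = 0.151, and 0.58, SE 0.37, adjusted p = 0.309). Per kilobase of hairpin, the miR-145 gene was at 22.7 to 90.9 CPM and the miR-143 gene at 7.2 to 42.8 CPM. The miR-145 gene was the higher in 12 of 12 libraries, whereas among the mature miRNAs miR-143-3p exceeded miR-145-5p in all libraries. The study describes total RNA inserts that are typically longer than either hairpin. The hairpin gene counts may therefore include longer transcripts and are not a like measure to mature miRNA counts.

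miR-221-3p and miR-222 were the members that fell over the first month. miR-221-3p was 127, 97.1 and 94.1 CPM in the P1 pigs, 69.8, 60.1 and 82.3 CPM in the P3 pigs, 80.1, 78.9 and 78.2 CPM in the P7 pigs and 64.2, 45.5 and 45.7 CPM in the P28 pigs. All P1 pigs lay above all other pigs, and all P28 pigs lay below all P7 pigs. From P1 to P28 it fell 2.05-fold (log2 fold change -1.03, SE 0.19, edgeR adjusted p = 5.76e-04, lower in 3 of 3 P28 pigs than in any P1 pig). From P7 to P28 it fell 1.53-fold (log2 fold change -0.61, SE 0.19, adjusted p = 0.0271). The P7 to P28 call was lost without any of the 3 P7 pigs, without pig 5 of P28 or without pig 6 of P28, with adjusted p values from 0.0694 to 0.114.

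miR-222 was 69.4, 40.5 and 31.6 CPM in the P1 pigs, 30.9, 22.0 and 31.8 CPM in the P3 pigs, 31.0, 21.3 and 25.8 CPM in the P7 pigs and 29.3, 14.5 and 16.8 CPM in the P28 pigs. Pig 4 of P1 stood well above the other 11 pigs and was also the highest in miR-221-3p and miR-221-5p. From P1 to P28 miR-222 fell 2.33-fold (log2 fold change -1.22, SE 0.31, edgeR adjusted p = 0.00588), and without pig 4 of P1 the change was -0.84 with an adjusted p of 0.0366. From P1 to P7 it fell 1.80-fold (log2 fold change -0.85, SE 0.31, adjusted p = 0.0449), but this call was lost in 11 of 21 alternatives, among them total counts (-0.66, adjusted p = 0.135), limma voom (adjusted p = 0.0554), 1 entry per mature miRNA (adjusted p = 0.0625) and leaving out pig 4 of P1 (-0.47, adjusted p = 0.268). The miR-222 counts behind these values were 46 to 217 per library.

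The minor arm miR-221-5p, with 28 to 83 counts per library, did not pass the threshold in any comparison. It was 18.9, 12.6 and 10.5 CPM at P1, 7.42, 10.2 and 8.89 CPM at P3, 10.5, 14.0 and 11.8 CPM at P7, and 10.8, 10.6 and 12.1 CPM at P28. The P3 pigs were all below the P1 pigs, and the other ages overlapped with P1. Its log2 fold change from P1 to P28 was -0.32, with a 95% interval from -0.84 to 0.20.

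The calls at each age were read against those of all entries. Between P1 and P3, 0 of 9 members were called by edgeR, against 6.56% of the 305 entries. At an unadjusted p under 0.05 the members were 3, against 19.3% of all entries, namely miR-221-3p (log2 fold change -0.59, SE 0.19), miR-221-5p (-0.65, SE 0.25) and miR-222 (-0.74, SE 0.31). DESeq2 called 1 of them, miR-221-3p, with an adjusted p of 0.0178, and edgeR called it with library totals that left out the members (adjusted p = 0.0485). The P1 and P3 libraries of 3 members did not overlap, against 18.7% of all entries.

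Between P1 and P7, 2 of 9 members, miR-145-3p and miR-222, were called, both lower, against 30.8% of all entries called and 16.7% called lower. At an unadjusted p under 0.05 the members were 5, against 40.0% of all entries: miR-143-3p, miR-145-3p, miR-221-3p and miR-222, with log2 fold changes below 0, and miR-126-5p, above 0. The libraries of 4 members did not overlap, against 40.3% of all entries. Both calls were lost without pig 4 or 5 of P1, without any of the 3 P7 pigs or without pig 6 of P28. The miR-145-3p call alone was lost without pig 6 of P1, pig 5 of P3 or pig 5 of P28, and the miR-222 call alone without pig 4 of P3. In some of these settings another member was called instead, miR-143-3p without pig 4 of P1 and miR-126-5p without pig 6 of P7. With total counts both calls were lost, and miR-126-5p and miR-145-5p were called higher.

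Between P1 and P28, 2 of 9 members, miR-221-3p and miR-222, were called, both lower, against 42.0% of all entries called and 22.0% called lower. The count stayed at 2 without any single library. At an unadjusted p under 0.05 the members were the same 2, against 48.2% of all entries. The libraries of 3 members did not overlap, against 55.1% of all entries, and the median log2 fold change was -0.26 over the members and -0.04 over all entries. The share of members called was below the share of all entries.

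Of the remaining comparisons, P3 versus P7 called 0 of 9 members, against 18.0% of all entries, with 0 members at an unadjusted p under 0.05, against 33.4% of all entries. At an adjusted p under 0.05, DESeq2 also called 0 members. Without pig 6 of P3 it became 2, miR-126-5p (log2 fold change 0.53, edgeR adjusted p = 0.0456) and miR-145-3p (-0.56, adjusted p = 0.0426). P7 versus P28 called 1 of 9, miR-221-3p, against 29.2% of all entries called and 14.4% called lower, and at an unadjusted p under 0.05 it was also the only member, against 42.0% of all entries. The comparisons share libraries, so their values are set side by side and not counted as separate support.

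**Figure D2:**
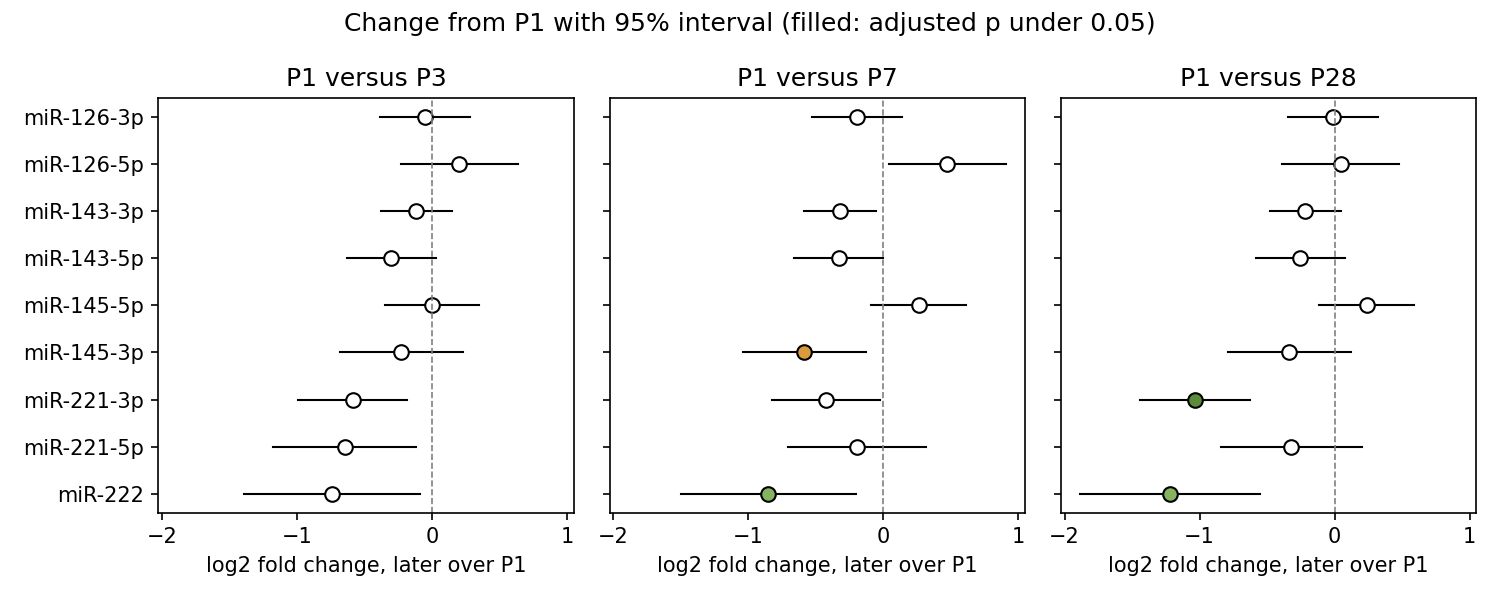
log2 fold change of each member from P1 to P3, P7 and P28 (horizontal axis, later age over P1), with 95% intervals from the edgeR fit; filled circles have an adjusted p under 0.05. At P28 the filled circles were miR-221-3p at -1.03 and miR-222 at -1.22, whereas the miR-126-3p circle was at -0.01.

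Ratios within a library do not depend on the scaling of the library. All 10 pairs of the most abundant arms and all 4 pairs of arms were compared over the 4 ages, by an exact two-sided permutation test of the between-age sum of squares of log2 ratios (15400 partitions) with Benjamini-Hochberg adjustment over 14 ratios; these ratios were chosen after the values had been seen. The ratio of endothelial miR-126-3p to smooth muscle miR-143-3p was nearly level, with geometric means of 0.145, 0.152, 0.158 and 0.167 at P1, P3, P7 and P28 (exact permutation p = 0.657). It lay between 0.122 and 0.179 in all 12 libraries. The ratio of miR-126-3p to miR-145-5p was 11.5, 10.9, 8.21 and 9.51 (exact permutation p = 0.442).

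miR-221-3p fell relative to both the endothelial miR-126-3p and the smooth muscle miR-145-5p. Its counts per 100 of miR-126-3p were 0.360 to 0.624 at P1, 0.319 to 0.333 at P3, 0.363 to 0.478 at P7 and 0.183 to 0.279 at P28, and all P28 pigs lay below all other pigs (exact permutation p = 0.00279, adjusted p = 0.025). Its counts per 100 of miR-145-5p were 4.85 to 6.37 at P1, 2.73 to 4.56 at P3, 3.24 to 3.53 at P7 and 1.78 to 3.13 at P28, and all P1 pigs lay above all other pigs (exact permutation p = 0.00357, adjusted p = 0.025). Against miR-143-3p the adjusted p was 0.0636. The first of these calls was lost without any 1 of 6 libraries (pigs 4 and 6 of P3, 4 and 5 of P7, 5 and 6 of P28) and the second without any 1 of 8 (pigs 4 and 6 of P1, 4 of P3, 4, 5 and 6 of P7, 5 and 6 of P28), with adjusted p values up to 0.117.

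Neither ratio of a pair made from a common transcript was called. miR-222 was 0.424, 0.397, 0.325 and 0.377 of miR-221-3p at P1, P3, P7 and P28 (exact permutation p = 0.403), while miR-145-5p was 0.0126, 0.0139, 0.0192 and 0.0176 of miR-143-3p (exact permutation p = 0.124). Of the arm ratios, that of miR-126-5p to miR-126-3p was highest at P7. It was 7.07% to 8.77% in the P7 pigs and 4.19% to 6.79% in the other 9 pigs, without overlap (exact permutation p = 0.0142, adjusted p = 0.0636). Adjusted p values were 0.107 for the arms of miR-221, 0.17 for those of miR-145 and 0.515 for those of miR-143. Leaving out 1 library brought 5 uncalled ratios under the threshold: the arms of miR-126 without pig 5 of P1 or pig 5 of P3 (adjusted p = 0.0403 and 0.0391 by the exact permutation test), the arms of miR-221 (0.0391), miR-221-3p over miR-143-3p (0.0459) and miR-222 over miR-145-5p (0.0391) without pig 5 of P3, miR-145-5p over miR-143-3p without pig 4 of P1 (0.0368), and miR-222 over miR-145-5p without pig 4 of P28 (0.00727).

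**Figure D3:**
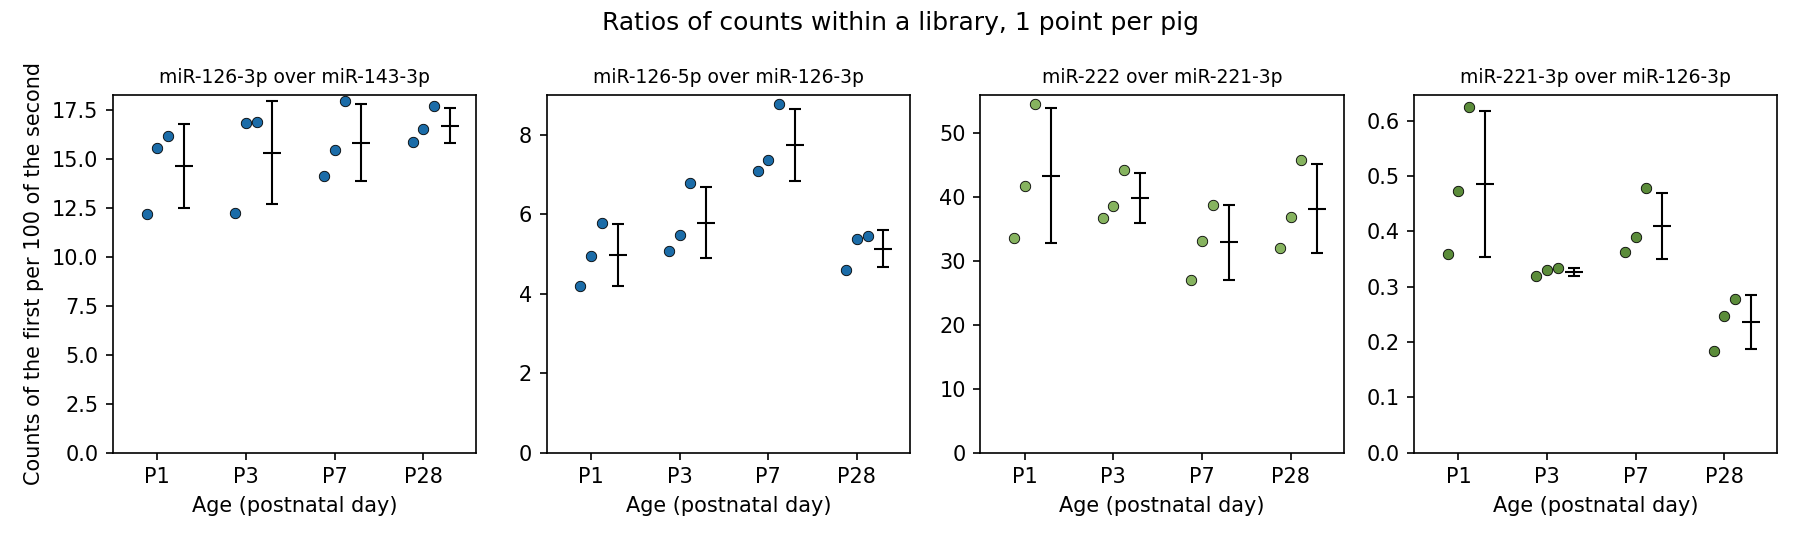
Counts of the first miRNA per 100 counts of the second within each library, for 4 ratios at P1, P3, P7 and P28, with 1 point per pig and the arithmetic mean and SD of 3 pigs beside the points. The miR-126-3p to miR-143-3p ratio stayed between 12.2 and 17.9, and miR-221-3p per 100 miR-126-3p was lowest in the P28 pigs.

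The miRNAs most like each member were found by Pearson's r of log2 CPM over the 12 libraries, as a description. Libraries share age, depth and scaling, and no p is given. miR-221-3p and miR-222 were most like each other (r = 0.91). They were followed by let-7i (r = 0.85) and miR-132 (r = 0.85) for miR-221-3p, and by miR-27b-5p (r = 0.86) and miR-132 (r = 0.83) for miR-222. The cluster partners miR-143-3p and miR-145-5p were not alike (r = -0.55). The miRNAs closest to miR-143-3p were miR-192 (r = 0.86), miR-122 (r = 0.80) and miR-148a-3p (r = 0.79), those closest to miR-145-5p were miR-23a (r = 0.81), miR-423-5p (r = 0.77) and miR-23b (r = 0.71), and those closest to miR-126-3p were miR-151-3p (r = 0.81), miR-450c-3p (r = 0.71) and miR-7142-3p (r = 0.66). miR-126-3p and miR-143-3p, the leading endothelial and smooth muscle members, had r = 0.52.

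Genes that mark vessel cells were examined in total RNA of the same ages, in a table of 9815 genes on 4 chromosomes. EGFL7, the host gene of miR-126, and CARMN, the host transcript of miR-143 and miR-145, were not analysed here. Of 21 endothelial markers, 13 were tested. At P28 versus P1, TEK, the angiopoietin receptor, rose (214 ± 13.4 to 308 ± 41.1 CPM, SD, n = 3, log2 fold change 0.53, SE 0.15, edgeR adjusted p = 0.0356). ECSCR, an endothelial adhesion and survival protein, fell (45.9 ± 16.2 to 13.5 ± 1.92 CPM, log2 fold change -1.77, SE 0.26, adjusted p = 0.0012), and so did PCDH12, an endothelial protocadherin (77.3 ± 1.84 to 40.0 ± 8.56 CPM, log2 fold change -0.95, SE 0.25, adjusted p = 0.0215). Of all 5526 genes tested, 7.38% were called higher and 7.93% lower. The 3 endothelial calls became 1 without pig 6 of P1 or pig 4 of P28, 5 without pig 4 of P3 and 6 without pig 5 of P3.

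Of 18 smooth muscle and pericyte markers, 6 were tested, and only GJA4, the connexin of arterial endothelium and mural cells, was called, lower at P28 (37.2 ± 4.22 to 18.7 ± 1.01 CPM, SD, n = 3, log2 fold change -0.99, SE 0.15, edgeR adjusted p = 0.00127); without pig 5 of P3 the count was 2. The median log2 fold change was -0.31 over the endothelial markers and -0.39 over the smooth muscle and pericyte markers, against 0.0035 over all genes. The summed level of the endothelial markers was 1388 to 1795 CPM in the P1 pigs and 1240 to 1375 CPM in the P28 pigs, and that of the smooth muscle and pericyte markers, most of it TPM2, 2454 to 3674 and 1810 to 2682 CPM. The miR-126-3p ranges of P1 and P28 overlapped. The endothelial marker sums did not, but by as little as 1388 against 1375 CPM. The endothelial markers did not move together, with log2 fold changes from -1.77 for ECSCR to 0.76 for GATA2. ENG, the largest of them at P1, had -0.69 and was not called (edgeR adjusted p = 0.218). The part of vessel cell content in the miRNA levels was not tested.

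No vessel marker was called at P3, where 0.0543% of all genes were called, or at P7, where 2.01% were. Under the study's own cutoffs (raw p up to 0.05, log2 fold change beyond 0.5 either way) the counts at P3 were 1 endothelial and 3 smooth muscle and pericyte markers, against 10.6% of all genes, and at P7 they were 1 and 1, against 11.7%. All of these had log2 fold changes above 0. At P3 they were PCDH12, a protocadherin of endothelium (log2 fold change 0.64, edgeR adjusted p = 0.267), PDGFRB, the platelet-derived growth factor receptor of mural cells (0.87, adjusted p = 0.245), NOTCH3, a Notch receptor of mural cells (0.93, adjusted p = 0.313), and HEYL, a target of Notch signaling (0.72, adjusted p = 0.282). At P7 they were PCDH12 (0.67, adjusted p = 0.174) and HEYL (0.65, adjusted p = 0.286). These cutoffs were applied to the edgeR fit only. At an adjusted p under 0.05, DESeq2 called 0 markers of either list at both ages.

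**Figure D4:**
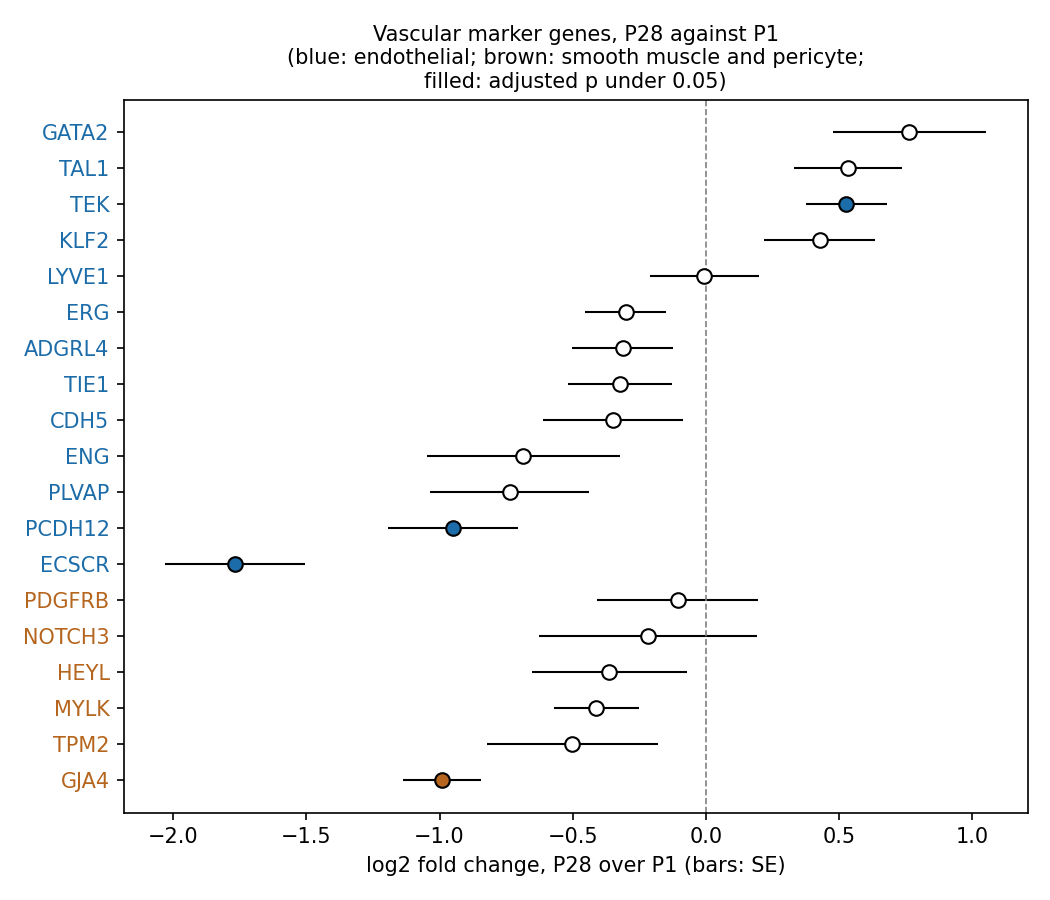
log2 fold change from P1 to P28 (horizontal axis, bars are SE) of the 13 endothelial (blue) and 6 smooth muscle and pericyte (brown) marker genes tested; filled circles have an edgeR adjusted p under 0.05. The filled circles were TEK at 0.53, PCDH12 at -0.95, ECSCR at -1.77 and GJA4 at -0.99.

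Other cell types were followed with their own markers at P28 versus P1, where 7.38% of all genes were called higher and 7.93% lower. Of 6 cardiomyocyte genes tested, MYBPC3, a thick filament protein, rose (log2 fold change 0.57, SE 0.14, edgeR adjusted p = 0.0158) and ACTC1, cardiac actin, fell (-0.60, SE 0.17, adjusted p = 0.034). Of 3 fibroblast genes, TCF21, a fibroblast transcription factor, fell (-1.05, SE 0.14, adjusted p = 6.78e-04), and so did THBS2, a matrix protein (-0.74, SE 0.21, adjusted p = 0.0357). Of 4 leukocyte genes, TYROBP, a myeloid adaptor, rose (0.90, SE 0.24, adjusted p = 0.0259), and so did SPI1, a myeloid transcription factor (0.70, SE 0.21, adjusted p = 0.041). Their summed levels at P1 and P28 were 69152 to 72857 and 70276 to 79914 CPM for cardiomyocyte, 859 to 1050 and 615 to 890 CPM for fibroblast and 133 to 186 and 229 to 315 CPM for leukocyte genes. Of these lists, 1 gene was called at P7, against 2.01% of all genes called at that age. It was COL15A1 of the fibroblast list, which rose (log2 fold change 0.72, SE 0.16, edgeR adjusted p = 0.0441).

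Messenger RNAs described as targets of the members were mostly outside the gene table. Of 9 targets of miR-126, 3 were tested and 0 called by edgeR at P3, P7 or P28 against P1. From P1 to P28 the log2 fold change was 0.28 (SE 0.18) for SPRED1, an inhibitor of Ras signaling, and 0.025 (SE 0.33) for PIK3R2, a phosphoinositide 3-kinase subunit. SLC7A5, an amino acid transporter, had a log2 fold change of 1.36 at P3 (SE 0.34, adjusted p = 0.142, every P3 pig above every P1 pig), 0.55 at P7 (SE 0.34, adjusted p = 0.487) and -1.10 at P28 (SE 0.36, adjusted p = 0.055, every P28 pig below every P1 pig). Of 14 targets of miR-143 and miR-145, 4 were tested and 1 was called at P28, against 7.93% of all genes called lower and 7.38% called higher. It was TGFBR2, a receptor for transforming growth factor beta, which was lower (444 ± 6.49 to 345 ± 16.8 CPM, SD, n = 3, log2 fold change -0.36, SE 0.11, adjusted p = 0.0462). KLF4, the smooth muscle phenotype regulator, had a log2 fold change of -0.50 at P7 (SE 0.26, adjusted p = 0.375, every P7 pig below every P1 pig) and 0.019 at P28 (SE 0.26). Of 9 targets of miR-221 and miR-222, only BBC3, a cell death gene, was tested, and it was not called (log2 fold change from P1 to P28 0.25, SE 0.40).

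Other miRNAs described in vessels were mostly lower at P28 than at P1. Of 15 such miRNAs tested, with 23 entries, 8 miRNAs with 15 entries were called lower than at P1 and 0 higher, against 22.0% of all entries called lower. The median log2 fold change was -0.55 over these entries and -0.04 over all entries. The lowest were miR-503 (120 ± 51.6 to 23.1 ± 4.73 CPM, SD, n = 3, log2 fold change -2.39, edgeR adjusted p = 4.03e-05), miR-132 (-1.81, adjusted p = 1.59e-04) and miR-155-5p (-1.02, adjusted p = 0.00345). miR-199a is listed under several precursors that share reads. miR-218 is also listed under 2 mature names, miR-218 and miR-218-5p, with the same counts, and was taken as 1 miRNA. Of 9 cardiomyocyte entries, 4 entries for 3 of 7 mature miRNAs were called higher, namely miR-133b (log2 fold change 1.38, edgeR adjusted p = 3.49e-05), miR-133a-3p under both precursors (0.72, adjusted p = 5.55e-04) and miR-1 (0.38, adjusted p = 0.0184). The other 5 entries were not called, with log2 fold changes of -0.20 and -0.22 for miR-133a-5p under its precursors, 0.0075 for miR-208b, 0.05 for miR-499-5p and 0.62 for miR-499-3p. All 4 erythroid and all 4 myeloid and lymphoid entries were called higher, against 20.0% of all entries. These entries stand for 3 mature miRNAs in each list. miR-486 and miR-150 are each listed under 2 precursors with the same values, and 2 of the myeloid and lymphoid entries are arms of miR-142. The log2 fold changes were 1.83 for miR-451, 1.35 for miR-144 and 0.66 for miR-486. They were 2.58 for miR-150, 1.90 for miR-142-5p and 1.59 for miR-142-3p. The part of blood cell content in the levels of the 9 vascular miRNAs was not tested.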

How the data were processed

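Small RNA and total RNA were sequenced from whole hearts of 12 Yorkshire pigs, 3 at each of 4 ages. The authors deposited estimated counts per mature miRNA and precursor, which were not normalized and of which 81.0% were whole numbers, and counts per gene for total RNA. The aligner, counter and build of both tables are not given in the sources used here. Column numbers did not match the sample titles, so that columns were assigned to ages only. miRNA counts were rounded to whole numbers. Entries that reached 10 counts in 3 or more of the 12 libraries were tested with the quasi-likelihood test of edgeR 4.0.16 (R 4.3.3), with TMM factors and all 4 ages in 1 fit, and called at a Benjamini-Hochberg adjusted p under 0.05 over all entries; 5526 genes were tested in the same way. Some reads are counted under more than 1 precursor. The scripts were tested on simulated data. Alternatives used DESeq2 1.42.0 (adjusted p left as NA where it gives none), limma 3.58.1, other scaling, no filter, 2 ages only, a replicate block and each library left out. Depth was 2921128 to 7917259 miRNA counts and 8887176 to 14883849 gene counts per library, and it limits miR-221-5p and miR-222 most. Members, lists and rules were chosen with earlier results of these data known. All members were named, with the 3 miRNAs most like each leading arm. Up to 4 called genes or 3 called miRNAs of each list with the smallest p at P28 were also named. SPRED1, PIK3R2, SLC7A5, KLF4, BBC3, COL15A1, PDGFRB, NOTCH3, HEYL, TPM2, ENG and GATA2 were named outside this rule, with their values known. So were miR-133a-5p, miR-208b, miR-499-5p, miR-499-3p, miR-199a and miR-218. A planned comparison of host genes with the miRNAs was not run, because EGFL7 and CARMN were not analysed here.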

Additional observations from a re-analysis of the deposited data

How the results depend on the processing

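The fall of miR-221-3p and miR-222 from P1 to P28 was called under all 21 alternatives run, with log2 fold changes from -1.22 to -0.88 and from -1.59 to -0.84. The calls at P7 were not stable. The count of members called from P1 to P3, 0 in the report, was 1 with DESeq2, 1 with totals that left out the members and 3 at the study's threshold (raw p up to 0.05, log2 fold change beyond 0.5 either way). From P1 to P7 the count of 2 was 1 with DESeq2 size factors, limma voom or no filter, 0 with 1 entry per mature miRNA or totals without the members, 4 with only the 2 ages compared and 0 to 3 without single libraries. It was 4 with total counts from P1 to P28. From P7 to P28 the count of 1 was 2 with total counts or only the 2 ages, and 0 to 1 without single libraries; from P3 to P7 it was 0 to 2 without single libraries. Total counts without TMM factors shifted the median of all entries by 0.20 (P1 to P7), -0.18 (P1 to P28), 0.14 (P3 to P7) and -0.37 (P7 to P28).

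Changes that were not called turned sign in several settings. With total counts the log2 fold change was 0.010 (miR-126-3p, P1 to P3), 0.00016 (miR-126-3p, P1 to P7), 0.0055 (miR-221-5p, P1 to P7), -0.13 (miR-126-5p, P1 to P28), 0.11 (miR-143-5p, P3 to P7), 0.017 (miR-222, P3 to P7), and from P7 to P28 -0.20 (miR-126-3p), -0.30 (miR-143-5p), -0.27 (miR-143-3p) and -0.11 (miR-145-3p). For miR-145-5p from P1 to P3 it was -0.026 with DESeq2 size factors and with DESeq2, -0.074 with no filter, -0.047 with 2 ages, -0.025 with 1 entry per mature miRNA and -0.067 with totals without the members. For miR-143-5p from P3 to P7 it was 0.015 with DESeq2 size factors and with DESeq2, 0.057 with no filter, 0.027 with 2 ages, 0.038 with 1 entry per mature miRNA and 0.077 with totals without the members. For miR-126-3p from P1 to P28 it was 0.043 with 2 ages, 0.014 with 1 entry per mature miRNA and 0.034 with totals without the members. With no filter it was -0.020 for miR-126-5p (P1 to P28) and -0.0011 for miR-143-5p (P7 to P28), which was -0.0034 with 2 ages.

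Without single libraries the ranges that crossed 0 were -0.050 to 0.29 (miR-126-5p), -0.16 to 0.076 (miR-126-3p) and -0.17 to 0.18 (miR-145-5p) from P1 to P3; -0.36 to 0.066 (miR-221-5p) from P1 to P7; -0.037 to 0.13 (miR-126-5p) and -0.11 to 0.12 (miR-126-3p) from P1 to P28; -0.18 to 0.013 (miR-126-3p), -0.11 to 0.080 (miR-143-5p) and -0.26 to 0.096 (miR-222) from P3 to P7; and -0.025 to 0.19 (miR-143-5p), -0.10 to 0.073 (miR-145-5p) and -0.22 to 0.040 (miR-221-5p) from P7 to P28. For log2 ratios at P28 minus P1 they were -0.50 to 0.038 (miR-126-3p over miR-145-5p), -0.062 to 0.17 (arms of miR-126), -0.11 to 0.047 (arms of miR-143) and -0.34 to 0.012 (miR-222 over miR-221-3p). Summing both arms of miR-126, miR-143 and miR-145 left the log2 ratio of endothelial to smooth muscle counts at 0.20.

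Endothelial marker calls from P1 to P28, 3 in the report, ranged from 2 to 7 over the alternative methods and thresholds. They were 7 with 2 ages, 6 at the study's threshold and 1 to 6 without single libraries. Smooth muscle and pericyte calls, 1 in the report, were 2 with 2 ages and 1 to 2 without single libraries. From P1 to P7 the endothelial count was 1 with 2 ages. At the study's threshold the endothelial and the smooth muscle and pericyte counts were 1 and 3 at P3 and 1 and 1 at P7. Column numbers did not pair the samples: 3 of 18 same-number pairs had a correlation of deviations over 0.1 (range -0.27 to 0.24), and 3 of 12 libraries matched best with their own number. With the number as a replicate block the members called were 0, 2, 2, 0 and 1 from P1 to P3, P1 to P7, P1 to P28, P3 to P7 and P7 to P28, as without it, and no marker count changed. The comparison of host genes with the miRNAs was not run at either prior count. The cause of these differences was not tested. Depth limits miR-221-5p and miR-222, with as few as 28 and 46 counts in a library.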
